A study of Mus musculus with 13 samples.

Results

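The comparison described here set 2-cell embryos sired by sperm that had been exposed to acrylamide as spermatocytes (AAS) against 2-cell embryos sired by control sperm. It comprised 6 of the 13 libraries of the series, 3 control and 3 AAS, and it tested 9747 of the 16739 gene IDs listed in the embryo libraries, those with a mean of at least 1 FPKM over the 6. FPKM is a level scaled to transcript length and to the reads of the library. All males were Swiss mice, and all embryos were made by in vitro fertilisation. AAS fathers had received acrylamide by intraperitoneal injection at 25 mg/kg per day for 5 days, and their sperm was taken 24 days after the last injection. Control fathers had received the vehicle, PBS. The time from their last injection to sperm collection is not given in the labels, so it may differ from that of AAS. The embryo series also holds 3 libraries whose fathers had the same dose and sperm collection 3 days after it (epididymal exposure, AAE), and these are used here only beside the AAS values. RNA came from groups of embryos, so a library is a pool. The number of embryos and of fathers is not given in the labels, and nothing says that replicates came from separate animals, so the p-values measure only the spread between these samples.

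Acrylamide is metabolised to glycidamide, an epoxide that forms adducts with DNA, and spermatocytes are the meiotic cells from which sperm develop. In the mouse, the major wave of embryonic transcription starts at the 2-cell stage, while most transcripts laid down in the oocyte are degraded. A library of 2-cell embryos therefore holds both maternal and newly made RNA, and ribosomes and mitochondria at this stage come largely from the oocyte.

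The libraries carried the transcripts of their labelled stage. Dppa3, a maternal factor that protects the maternal genome from demethylation, lay between 1069.29 and 1999.35 FPKM, and the 2-cell gene Zscan4d between 113.78 and 255.47 FPKM. The sperm protamine gene Prm1 and the transition protein genes Tnp1 and Tnp2 were not listed in any embryo library. Of the 12 spermatid and sperm markers looked at, 5 were listed in at least 1 embryo library. Only Odf2 of these was tested, and it was high, at 7.56 to 7.96 on the log2(FPKM + 1) scale. The files list no gene at 0, and an unlisted gene was taken as 0. Control libraries listed 13933, 13675 and 14392 genes and AAS libraries 12225, 12173 and 12673, so the groups did not overlap. The means were 14000 ± 363 and 12357 ± 275 (SD, n = 3 each; two-sided exact permutation p = 0.1, the smallest that 3 against 3 can give). Of all gene IDs, 238 were listed in every control library and no AAS library, and 5 the other way round. Most of these were low, since only 9 of the 238 and 0 of the 5 reached the mean of 1 FPKM. AAS replicate 2 had the lowest median correlation with the other libraries (r = 0.873), and the mean variance per gene was 0.218 in control and 0.546 in AAS on the log2(FPKM + 1) scale. Read depth is unknown, so no counting error can be given.

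No gene passed the test run here, while the authors' deposited table, described further below, calls 35. Of 9747 genes, limma called 0 (0%) at a Benjamini-Hochberg adjusted p under 0.05, and the smallest adjusted p was 0.631. At an unadjusted p under 0.05 there were 646 genes (6.63%), where 487.4 would be expected by chance. Of these, 154 (1.58%) were higher and 492 (5.05%) lower in AAS. All 3 AAS values lay above all 3 control values for 446 genes (4.58%) and below them for 821 (8.42%). Fold changes below 0 made up 58.9% of genes and the median was -0.10 on the log2 scale. That tilt depended on scaling: with each library set to the same FPKM sum the median moved to 0.02, 48.3% of genes were below 0, and the unadjusted count split into 272 higher and 333 lower. Quantile normalisation gave 0.02, 48.2%, 279 and 398. A shift of the libraries to a common median gave -0.03, 52.8%, 179 and 445. Log2 fold changes below are AAS minus control with FPKM as deposited and are to be read against this range of shifts, and since no gene passed, they are given as values.

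The genes with the smallest p-values were lower in AAS. Fam162a, a mitochondrial protein induced by hypoxia, was at 5.9, 8.95 and 5.58 FPKM in controls and at 0.19, 0.13 and 0.53 FPKM in AAS. Every AAS library was below every control library, with a log2 fold change of -2.59 (SE 0.40; limma, unadjusted p = 0.000123). Vkorc1, the vitamin K epoxide reductase, was at 58.93, 53.08 and 61.11 FPKM in controls and at 25.06, 15.23 and 11.1 in AAS. The groups were again apart and the log2 fold change was -1.77 (SE 0.31).

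Cox7c, a small subunit of cytochrome c oxidase, stood at 7.82, 5.54 and 5.64 FPKM in controls and 1.14, 0.57 and 0.16 in AAS (log2 fold change -2.21, SE 0.42). Immp1l, a peptidase of the inner mitochondrial membrane that trims imported proteins, stood at 146.33, 175.19 and 111.58 FPKM in controls and 68.72, 64.93 and 67.58 in AAS. The AAS libraries were close to each other and all lay below control (-1.07, SE 0.22). Dnajc19, of the protein import motor, was at 3.2, 3.89 and 6.4 FPKM in controls and 0, 0.89 and 0.29 in AAS. Dguok, the mitochondrial deoxyguanosine kinase, was at 2.27, 5.76 and 2.42 FPKM in controls and was listed in AAS replicate 1 alone of the AAS libraries, at 0.17. Mrps16, of the small mitochondrial ribosome, was at 6.93, 3.9 and 3.84 FPKM in controls and 0.87, 0 and 0.12 in AAS.

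Others of the 15 lower genes had other roles. Sycp3, a component of the synaptonemal complex that oocytes also make, was at 131.95, 164.48 and 144.99 FPKM in controls and 81.79, 78.6 and 89.25 in AAS. It had a narrow spread within each group and a log2 fold change of -0.81 (SE 0.19). Ppp2r5c, a regulatory subunit of protein phosphatase 2A, was at 180.33, 175.11 and 126.96 FPKM in controls and 79.15, 82.08 and 95.25 in AAS (-0.89, SE 0.21). Kin, a nuclear DNA- and RNA-binding protein, fitted the same order, with 26.96, 16.31 and 18.68 FPKM in controls and 6.29, 5.17 and 7.84 in AAS. The lowest log2 fold change of all genes tested, -2.79 (SE 0.64), was that of Snrpd2, a core protein of the spliceosomal snRNPs, at 31.19, 16.52 and 9.64 FPKM in controls and 3.09, 0 and 3.39 in AAS. Stxbp3, a vesicle fusion regulator, had a log2 fold change of -2.12, Fcgr3, an IgG receptor of leukocytes, one of -2.42, Rangrf, which binds the GTPase Ran, one of -2.07, and AI413582 one of -2.41. Without AAS replicate 2 the value of Snrpd2 was -2.10.

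**Figure D1:**
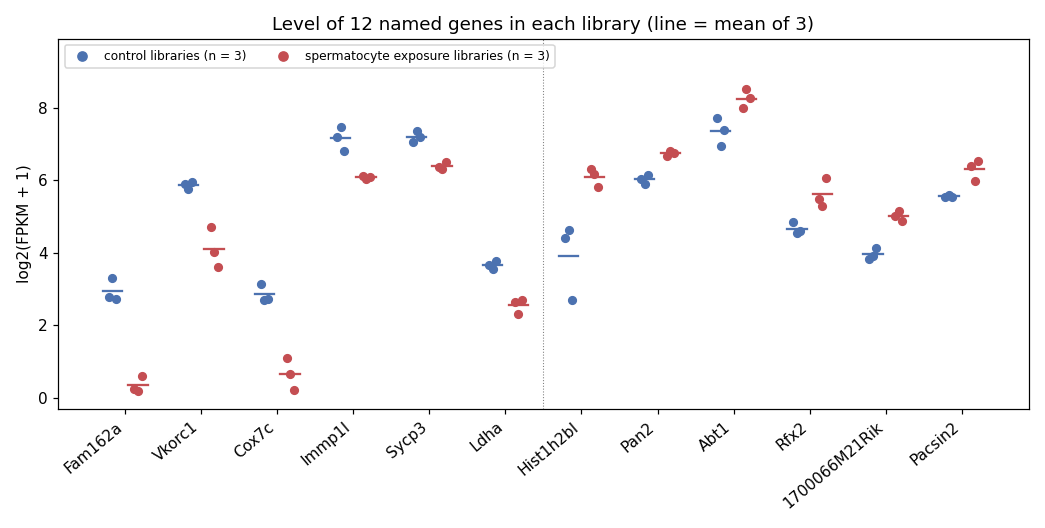
Level of 12 named genes on the log2(FPKM + 1) scale in each of the 3 control (blue) and 3 AAS libraries (red), with a line at each mean; the 6 genes on the left had lower and the 6 on the right higher AAS values. The 12 were picked from the named genes, which were chosen largely for small p-values. The groups did not overlap for any of the 12 (13% of all genes tested had such groups), and for Immp1l the AAS libraries lay between 64.93 and 68.72 FPKM.

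The 15 genes with the smallest p-values among those higher in AAS had varied roles and included 2 genes of histone H2B. Hist1h2bl, which encodes a histone H2B, was at 20.28, 23.89 and 5.5 FPKM in controls and 78.19, 71.73 and 55.25 in AAS (log2 fold change 2.19, SE 0.47; limma, unadjusted p = 0.00122). Every AAS library was above control, and the lowest control value was that of replicate 3. Pan2, the catalytic subunit of a deadenylase that shortens mRNA tails, was at 64.38, 59.1 and 69.54 FPKM in controls and 100.89, 110.84 and 107.14 in AAS. Its groups were narrow and apart (0.72, SE 0.19).

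Abt1, an activator of basal transcription, was at 210.04, 123.1 and 166.62 FPKM in controls and 252.38, 362.38 and 305.87 in AAS (0.90, SE 0.24). Rfx2, a transcription factor of ciliary genes, was at 28.07, 22.15 and 23.22 FPKM in controls and 43.84, 38.21 and 66.08 in AAS (0.95, SE 0.27). Anapc2, the cullin subunit of the anaphase-promoting complex, was low, at 1.18, 3.32 and 3.96 FPKM in controls and 13.05, 8.33 and 7.95 in AAS. Some of the other genes are named for tissues outside the embryo. Lhb, the beta subunit of luteinising hormone, was at 0.39, 0.57 and 2.3 FPKM in controls and 11.46, 5.08 and 7.03 in AAS, the kallikrein gene Klk1b24 had a log2 fold change of 1.78 and the vomeronasal receptor gene Vmn1r58 one of 1.02. The remaining values were 1.06 for 1700066M21Rik, 1.83 for Mospd3, 1.72 for the zinc finger factor Ovol2, 0.91 for Ttc8 of the BBSome, 1.43 for the semaphorin receptor Nrp2, 1.49 for Hist1h2bp and 1.79 for the Snail family gene Snai3.

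Of the 32 lists with at least 7 genes tested, 29 had a median below 0 with FPKM as deposited, 23 with libraries scaled to the same sum and 24 after quantile normalisation. These counts include the combined lists of cytosolic ribosomal proteins and of oxidative phosphorylation beside their own parts, so those genes count more than once. Cytosolic ribosomal protein genes had the lowest medians of these lists. Of 79 genes tested, 78 had a log2 fold change below 0 (98.7%, against 58.9% of all genes), with a median of -0.89. The median was -0.76 with libraries scaled to the same sum and -0.81 after quantile normalisation. The large subunit (47 genes, 47 below 0, median -0.90) and the small subunit (32 genes, 31 below 0, median -0.86) had similar values. No ribosomal protein gene passed the test, 12 (15.2%, against 6.63% of all genes) had an unadjusted p under 0.05, all of them lower (5.05% of all genes), and 8 (10.1%, against 8.42% of all genes) had every AAS library below every control library.

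The libraries did not separate by group on this list. The median level of the 79 genes on the log2(FPKM + 1) scale was 6.45, 5.70 and 4.75 in control and 5.37, 3.52 and 5.42 in AAS. Control replicate 1 was the highest and AAS replicate 2 the lowest, while AAS replicates 1 and 3 lay above control replicate 3. AAS replicate 2 was the lowest of the 6 libraries for 68 of the 79 genes (86.1%, against 32.4% of all genes tested), and control replicate 1 was the highest for 72 (91.1%, against 22.8%). AAS replicate 1 was above control replicate 3 for 64 of the 79 genes (81.0%, against 52.3%). Without AAS replicate 2, 60 of 79 genes were below 0 with a median of -0.31, where all genes tested had a median of -0.04. Without control replicate 1 the median was -0.57 with 71 below 0, and without control replicate 3 it was -1.36 with 79 below 0. The count at an unadjusted p under 0.05 in limma also depended on single libraries. It was 5 of 79 without AAS replicate 2, beside 702 of 9599 among all genes tested. It was 3 of 79 without control replicate 1, beside 371 of 9572, and 7 to 32 of 79 without any other library. Ribosomal proteins have many processed pseudogenes, and how the authors treated reads that match several places is not given in the sources used here.

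Single ribosomal protein genes differed in how far the groups lay apart. Rpl21 was at 32.84, 36.01 and 18.41 FPKM in controls and 8.58, 3.36 and 13.52 in AAS. Its groups did not overlap (log2 fold change -1.78, SE 0.47; limma, unadjusted p = 0.00420), and without AAS replicate 2 the value was -1.30. Rps3 was at 18.45, 10.08 and 8.57 FPKM in controls and 3.08, 1.29 and 6.21 in AAS (-1.65, SE 0.49). Rps6, whose protein is phosphorylated by S6 kinase, was at 96.2, 77.21 and 52.47 FPKM in controls and at nearly one level in AAS, 40.33, 41.15 and 43.34 (-0.80, SE 0.26). Rps24, at 227.55, 217.11 and 83.94 FPKM in controls and 95.88, 46.49 and 75.36 in AAS, overlapped, since AAS replicate 1 was above control replicate 3. Rpl5 had a log2 fold change of -1.96 and -1.21 without AAS replicate 2, and Rpl18 one of -1.21, or -0.79 without control replicate 1.

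**Figure D2:**
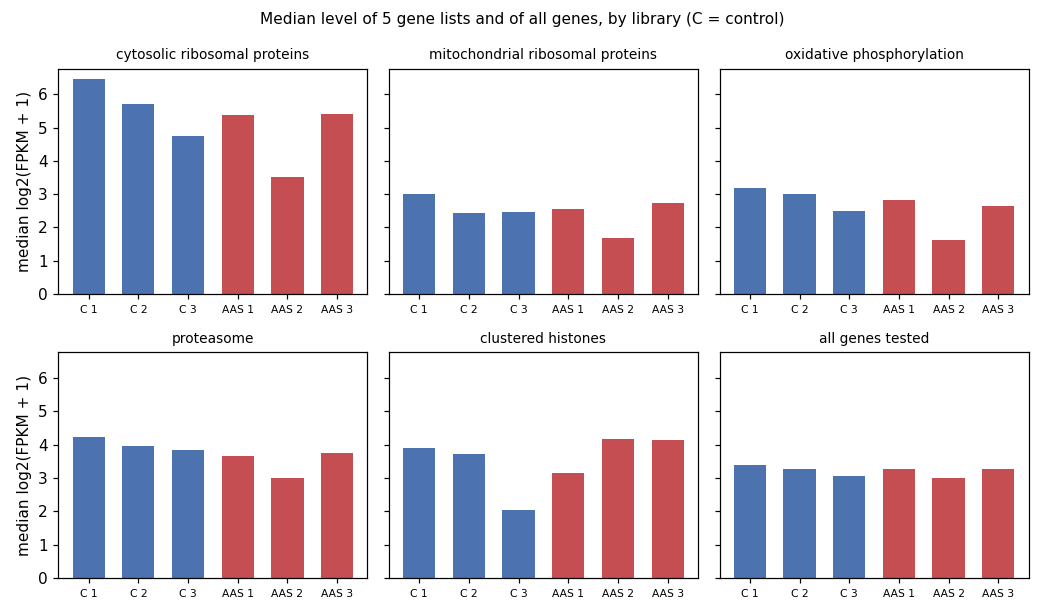
Median level of 5 gene lists and of all genes tested in each library, on the log2(FPKM + 1) scale, with control libraries in blue and AAS libraries in red. AAS replicate 2 is lowest for cytosolic ribosomal proteins (3.52), mitochondrial ribosomal proteins, oxidative phosphorylation and the proteasome and highest for clustered histones (4.18), and control replicate 3 is lowest for the histones (2.05).

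Lists that serve translation beside the ribosome itself also had medians below that of all genes. Ribosome biogenesis had a median of -0.42 (40 of 49 genes below 0), or -0.08 without AAS replicate 2. Npm1, the nucleolar chaperone nucleophosmin, was at 1248.99, 1019.55 and 1789.35 FPKM in controls and 1096.89, 645.24 and 853.58 in AAS, groups that overlapped (-0.64, SE 0.26). Wdr43 of the small subunit processome was at -0.50 and Rrp12, which acts in export of the small subunit, at 0.93. Translation factors had a median of -0.32 (38 of 43 below 0), or -0.08 without AAS replicate 2. Eif2s1, the alpha subunit of eIF2 on which stress kinases act, was at 20.47, 25.87 and 24.37 FPKM in controls and 12.31, 13.4 and 12.44 in AAS, with groups apart (-0.84, SE 0.25). Eif3h was at -1.04 and Eif3j1 at -1.49.

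Nuclear genes of the mitochondrial ribosome and of oxidative phosphorylation had lower medians than all genes in every subgroup. Mitochondrial ribosomal proteins had a median of -0.51 (54 of 63 tested below 0, of 78 genes in the list), and 14 (22.2%, against 8.42%) had every AAS library below every control library. Their level on the log2(FPKM + 1) scale had a median of 2.99, 2.43 and 2.46 in control and 2.55, 1.67 and 2.72 in AAS, so AAS replicates 1 and 3 lay within the control range. Without AAS replicate 2 the median fold change was -0.29 with 45 of 63 below 0. Mrps6 was at 13.52, 10.47 and 5.83 FPKM in controls and 2.55, 1.5 and 3.63 in AAS (log2 fold change -1.60, SE 0.43). Mrps28, at 3.79, 3.41 and 0.98 FPKM in control, was not listed in any AAS library.

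Oxidative phosphorylation gave 61 of 73 genes below 0 with a median of -0.52 and with 10 (13.7%, against 8.42% of all genes) with groups apart and AAS lower. An unadjusted p under 0.05 was found for 15 lower and 1 higher gene (21.9% together, against 6.63% of all genes, made up of 5.05% lower and 1.58% higher). By complex, the median was -0.59 for NADH dehydrogenase, complex I (25 of 32 below 0), -0.26 for complexes II and III (10 of 14), -0.50 for cytochrome c oxidase, complex IV (11 of 11), and -0.69 for the ATP synthase (15 of 16). Without AAS replicate 2 the list had 47 of 73 below 0 and a median of -0.22, and complexes II and III alone turned to 0.20. Without control replicate 1 the list had a median of -0.41. AAS replicate 2 was the lowest library for 39 of the 73 genes (53.4%).

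Ndufa10 of complex I was at 29.2, 38.68 and 22.46 FPKM in controls and 13.01, 18.74 and 13.75 in AAS, with groups apart (-0.93, SE 0.29). Ndufa1 was at 26.54, 14.34 and 11.73 FPKM in controls and 4.37, 0.16 and 5.33 in AAS, with the lowest value in AAS replicate 2 (-2.36, and -1.59 without it). No AAS library listed Ndufa5, which stood at 4.78, 0.7 and 5.96 FPKM in control. Atp5k, a small subunit of the ATP synthase, was at 3.16, 2.05 and 2.69 FPKM in controls and listed in AAS replicate 2 alone of the AAS libraries, at 0.25. Atp5f1 had groups apart at -0.66, and Cycs, the cytochrome c that carries electrons between complexes III and IV, was at -1.07, or -0.68 without AAS replicate 2. Cox5a was at 72.17, 95.78 and 69.64 FPKM in controls and 55.77, 35.99 and 59.22 in AAS (-0.66, SE 0.26), whereas Cyc1 had higher AAS values on a low level (0.97, or 0.56 without control replicate 1). Cox6b1 was not listed in AAS replicate 2 and was at 16.54 and 30.16 FPKM in the other AAS libraries, and its log2 fold change moved from -2.08 to -0.57 without AAS replicate 2. Uqcrq was at -1.64 and Atp5j at -2.05, with overlapping groups, and Atp5j was at -1.18 without control replicate 1.

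Mitochondrial import and quality control had a median of -0.25 (22 of 30 below 0), or -0.06 without AAS replicate 2, with Tomm20, a receptor of the outer membrane, at 15.56, 13.97 and 8.03 FPKM in controls and 4.92, 1.32 and 5.56 in AAS (-1.55, SE 0.48). Glycolysis and the citric acid cycle had a median of -0.22 (22 of 30). Ldha, lactate dehydrogenase A, was at 11.71, 10.77 and 12.63 FPKM in controls and 5.25, 3.94 and 5.51 in AAS, with groups well apart (-1.11, SE 0.31). Pgam1 was at -0.86, and Tpi1, the triose phosphate isomerase, at 0.96, and without AAS replicate 2 they were at -0.55 and 0.56.

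Proteasome genes had a median of -0.63, with 28 of 31 below 0 (90.3%, against 58.9% of all genes) and 6 (19.4%, against 8.42%) with AAS below control in every library. Without AAS replicate 2 the median was -0.38 with 22 below 0. Psmd4, a ubiquitin receptor of the proteasome, was at 67.34, 52.68 and 46.66 FPKM in controls and 33.38, 30.81 and 37.7 in AAS (-0.68, SE 0.23). Psma5 of the core was at 7.22, 8.39 and 7.74 FPKM in controls and 3.23, 2.91 and 3.82 in AAS, and the ATPase subunit Psmc2 was at -0.94. Spliceosome genes had a median of -0.27 (31 of 41), or -0.07 without AAS replicate 2, with Snrpd3 at 11.82, 21.13 and 14.93 FPKM in controls and 7.11, 4.86 and 4.24 in AAS and Srsf2 at -0.98, or -0.52 without AAS replicate 2. Chaperone genes had a median of -0.24 (36 of 44), or -0.12 without AAS replicate 2. Cct8, a subunit of the chaperonin that folds actin and tubulin, was at 50.17, 36.36 and 36.45 FPKM in controls and 20.35, 16.19 and 26.27 in AAS (-0.95, SE 0.27). Tcp1, of the same chaperonin, was at -0.59 and Sdf2l1 of the endoplasmic reticulum at -1.45, or -0.93 without control replicate 1.

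**Figure D3:**
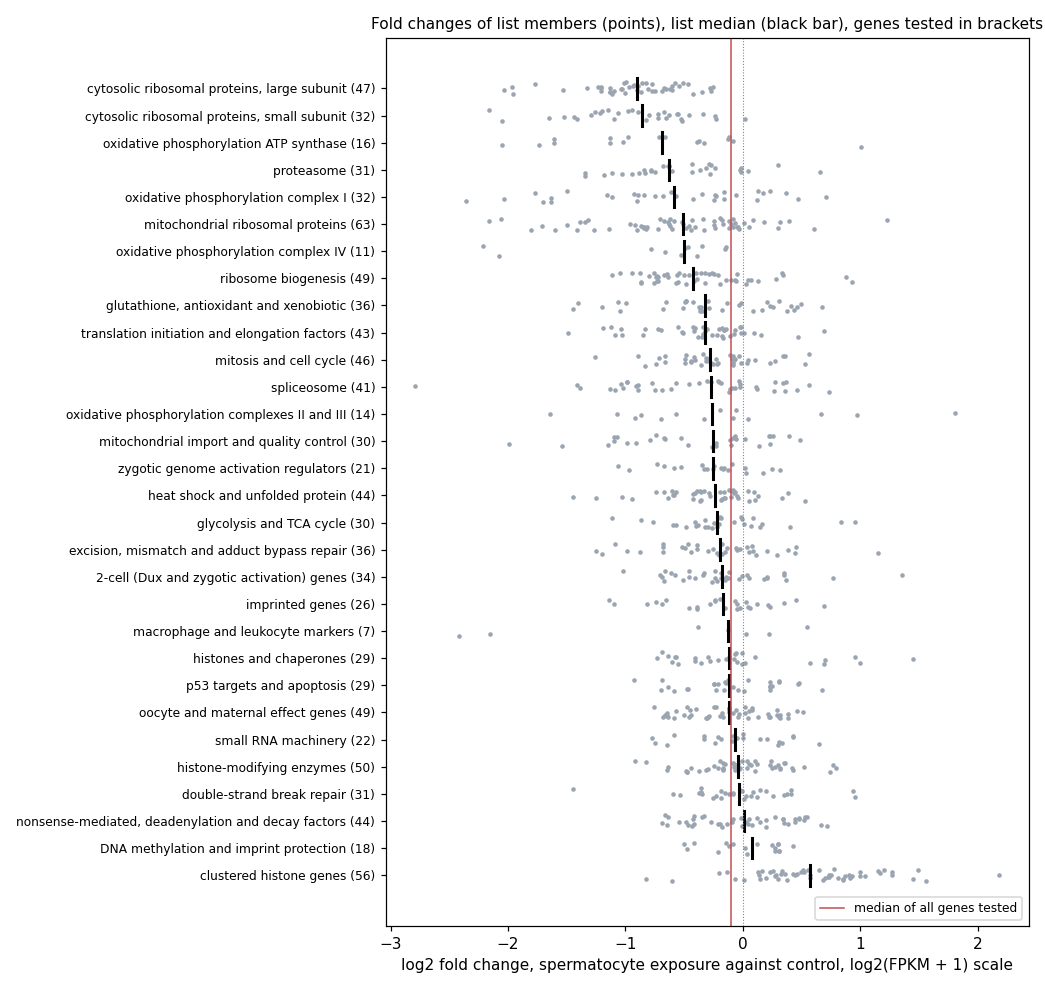
Log2 fold change of each tested member (points, vertical jitter added) of the lists with 7 or more genes tested, with each list median as a black bar and the median of all genes tested (-0.10) as a red line. The combined lists are not drawn. Cytosolic ribosomal proteins lie lowest (medians -0.90 and -0.86) and clustered histone genes highest (0.57); list members overlap between neighbouring lists.

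Genes that mark the 2-cell stage and the maternal store were closer to the median of all genes. The 2-cell list, with targets of the factor Dux, had a median of -0.18 (25 of 34 below 0). Zscan4d was at 164.24, 226.6 and 255.47 FPKM in controls and 182.5, 136.5 and 113.78 in AAS, overlapping groups (-0.58, SE 0.24). Usp17le, a deubiquitinase gene of a repeated family with near-identical copies, was at 4.55, 2.49 and 4.5 FPKM in controls and 9.14, 18.09 and 8.38 in AAS, all above control (1.36, SE 0.41). The homeobox gene Obox6 was at -1.02, or -0.51 without AAS replicate 2. The maternal list had a median of -0.12 (31 of 49 below 0). Dppa3 was at 1999.35, 1989.58 and 1430.32 FPKM in controls and 1492.81, 1069.29 and 1265.64 in AAS (-0.50, SE 0.20), overlapping, Npm2, a histone chaperone of oocytes, was at -0.57 and Zfp36l2, an mRNA decay factor, at -0.65.

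Regulators of genome activation had a median of -0.25 (16 of 21), or -0.15 without AAS replicate 2. Nfyb, a subunit of the CCAAT-binding factor NF-Y, was at 8.62, 8.71 and 7.55 FPKM in controls and 3.68, 4.61 and 3.08 in AAS, groups apart (-0.97, SE 0.33). Nr5a2, an orphan nuclear receptor of cleavage embryos, was at 43.96, 41.06 and 40.15 FPKM in controls and 34.31, 19.42 and 25.84 in AAS (-0.67, SE 0.26), and Zfp42 was at -1.06. Mitosis and cell cycle genes had a median of -0.28 (37 of 46), or -0.13 without AAS replicate 2 and -0.16 without control replicate 1, with Birc5, the chromosomal passenger survivin, at 315.37, 348.8 and 198.87 FPKM in controls and 164.65, 185.58 and 180.44 in AAS (-0.66, SE 0.23). The kinesin gene Kif23 was at -0.66 and Cdk4 at -1.26.

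Lists of DNA repair genes were included because glycidamide forms adducts with DNA. Double-strand break repair genes had a median of -0.03 (17 of 31 below 0), and excision, mismatch and bypass repair genes one of -0.19 (25 of 36 below 0). Without AAS replicate 2 the first was 0.09. Xrcc3, which acts in homologous recombination, was at 13.63, 12.48 and 9.81 FPKM in controls and 5.49, 2.75 and 3.3 in AAS, with groups apart (-1.45, SE 0.36). The helicase Blm was at 36.9, 38.47 and 44.26 FPKM in controls and 22.87, 27 and 28.56 in AAS (-0.59, SE 0.23). Parp2, a sensor of strand breaks, was at -1.25, the flap endonuclease Fen1 at -1.09 and the ubiquitin ligase Rnf8 at -0.53, or -0.29 without AAS replicate 2. The p53 target and apoptosis list had 0 of 29 genes with an unadjusted p under 0.05, against 6.63% of all genes, a share that predicts few in a list this short. Its median was -0.12, or 0.14 without AAS replicate 2. Ccng1 was at 14.06, 15.76 and 14.38 FPKM in controls and 10.31, 3.36 and 10.39 in AAS. Mdm4, an inhibitor of p53, was at 0.31 and Trp53inp1 at 0.47, with overlapping groups.

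Glutathione, which conjugates acrylamide, is used by enzymes whose list had a median of -0.32 (24 of 36 below 0), or -0.21 without AAS replicate 2 and -0.51 without AAS replicate 1. Gstp1, a glutathione transferase, was at 21.87, 12.52 and 7.27 FPKM in controls and 9.91, 1.97 and 2.85 in AAS, overlapping (-1.45, SE 0.56). Gpx4, which reduces lipid peroxides, was at -1.40 and Gsta4 at -1.20, or -0.55 without AAS replicate 1, both with overlapping groups. Of the 36 genes, 0 had every AAS library below every control library (8.42% of all genes had) and 2 had every one above (4.58% of all genes had). An unadjusted p under 0.05 in limma was found for 5.56%, against 6.63% of all genes.

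Chromatin lists lay near 0. DNA methylation and imprint protection had a median of 0.08 (11 of 18 above 0), with Tet3, the dioxygenase that oxidises methylcytosine in zygotes, at 65.67, 56.48 and 53.02 FPKM in controls and 78.63, 75.72 and 82.13 in AAS, groups apart (0.43, SE 0.20). Zfp57, which protects imprints, overlapped at 0.31. Histone-modifying enzymes had a median of -0.04 (28 of 50 below 0), or 0.13 without AAS replicate 2, with Kat8 at -0.63, Kmt2d at 0.79 and Hdac2 at -0.47. Imprinted genes had a median of -0.17 (17 of 26), with Impact at -1.10, Cdkn1c at -1.14 and Cobl at -0.68. The small RNA machinery had one of -0.07 (13 of 22), with Mael at -0.64, Trdmt1 at -0.78 and Zcchc11 at -0.75. Decay factors had one of 0.01 (22 of 44), with Pan2, described above, at 0.72, Pabpn1 at -0.49 and Exosc8 at -0.66. Of these 44 genes, 7 had every AAS library above every control library (4.58% of all genes had) and 4 had every one below (8.42% of all genes had). Histones with chaperones, a list that overlaps others, had a median of -0.12 (21 of 29).

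Clustered histone genes, whose mRNAs lack a poly(A) tail and are made in S phase, were the list with the highest median among those with at least 7 genes. The list was added after values had been seen, so its direction is a description. Of 56 genes tested, 51 were above 0 (against 41.1% of all genes) with a median of 0.57, 8 had an unadjusted p under 0.05, all of them higher (14.3%, against 1.58% of all genes), and 5 had every AAS library above control (4.58% of all genes had). By protein, the medians were 0.86 for H1 (5 of 5 above 0), 0.41 for H2A (13 of 16), 0.57 for H2B (13 of 15), 0.86 for H3 (9 of 9) and 0.56 for H4 (11 of 11). The coding sequences of one histone class are near-identical, and reads may be split between copies.

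On this list too the groups overlapped. The summed level was 2544, 2390 and 909.8 FPKM in controls and 1640, 3768 and 3555 in AAS. Control replicate 3 was the lowest and AAS replicate 1 lay below control replicates 1 and 2. Without control replicate 3 the median was 0.18 with 33 of 56 above 0, and without AAS replicate 1 it was 1.01. An unadjusted p under 0.05 in limma was found for 4 of 56 without control replicate 3, beside 735 of 9670 among all genes tested. It was found for 3 of 56 without AAS replicate 3, beside 857 of 9611, and for 19 of 55 without AAS replicate 1, beside 1022 of 9566. Hist1h2bp was at 9.31, 4.64 and 3.54 FPKM in controls and 14.43, 13.77 and 24.89 in AAS, all above control (1.49, SE 0.41). Hist1h1c, a linker histone, was low, at 0.63, 0 and 1 FPKM in controls and 2.51, 5.9 and 1.74 in AAS (1.45, SE 0.51).

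The promoters of both named H2B genes are shown because histone promoters share short elements, and that of Cox7c because it was the lower gene of an oxidative phosphorylation list with the smallest p. The sequences are RefSeq windows of GRCm38.p6 from 250 bases before to 50 after the annotated start, 300 bases each, written along the gene. Capitals mark CCAAT or its reverse complement ATTGG, which NF-Y binds, and the TATA element TATAAA or its reverse complement. Hist1h2bl lies on the minus strand at chr13:21716134-21716433, Hist1h2bp on the plus strand at chr13:21787238-21787537 and Cox7c on the minus strand at chr13:86046746-86047045.
Hist1h2bl: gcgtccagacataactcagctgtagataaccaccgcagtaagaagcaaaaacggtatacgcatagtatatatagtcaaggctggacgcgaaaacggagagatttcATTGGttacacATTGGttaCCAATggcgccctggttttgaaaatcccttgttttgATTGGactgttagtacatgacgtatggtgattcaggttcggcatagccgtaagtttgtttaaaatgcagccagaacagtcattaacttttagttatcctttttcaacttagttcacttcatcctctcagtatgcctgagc
Hist1h2bp: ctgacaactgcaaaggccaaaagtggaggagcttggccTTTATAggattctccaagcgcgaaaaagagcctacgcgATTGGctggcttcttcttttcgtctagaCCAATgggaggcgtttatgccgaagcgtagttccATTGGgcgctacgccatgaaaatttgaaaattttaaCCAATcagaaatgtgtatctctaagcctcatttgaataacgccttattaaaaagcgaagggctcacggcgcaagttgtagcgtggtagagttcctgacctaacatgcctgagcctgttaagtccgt
Cox7c: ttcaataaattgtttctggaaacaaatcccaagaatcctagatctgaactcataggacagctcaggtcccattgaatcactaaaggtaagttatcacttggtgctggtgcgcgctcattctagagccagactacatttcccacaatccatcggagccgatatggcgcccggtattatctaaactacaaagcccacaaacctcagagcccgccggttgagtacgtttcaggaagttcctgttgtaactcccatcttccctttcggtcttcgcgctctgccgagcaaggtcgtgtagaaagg
The Hist1h2bl window holds 4 CCAAT elements and the Hist1h2bp window 4 and 1 TATAAA element on the opposite strand, with no overlap between them. The search took both strands and 5 motifs, CCAAT, the ETS-type motif CCGGAAGT, the YY1-type motif AAGATGGC, the element TATAAA and a Dux motif, and the Cox7c window holds none of them. Of the 56 histone genes, 52 had a promoter in the table, and CCAAT was in 46 of their 53 windows (86.8%), against 37.4% of all 32851 windows and 39.7% of the 10101 windows of genes tested. TATAAA was in 28 of the 53 (52.8%, against 13.6% of all and 7.91% of genes tested). Of the 79 cytosolic ribosomal protein genes 58 had a window, and CCAAT was in 30.9% of their 68 windows, CCGGAAGT in 16.2% (3.89% of all, 8.29% of genes tested) and AAGATGGC in 11.8% (2.75% of all, 4.46% of genes tested). For oxidative phosphorylation, 61 genes with 65 windows held CCAAT in 44.6%, CCGGAAGT in 7.69% and AAGATGGC in 12.3%, so that the first 2 lay near the shares of genes tested. The Dux motif was in 0 windows of these 3 lists (0.207% of all, 0.139% of genes tested). These are counts of letters and show no binding.

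Fold changes varied with the genomic span of a gene, from its first to its last base in RefSeq. Transcript length was not used here. Genes were put in 10 bins of equal number by span. In the bin of the shortest spans (median 2846 bases) the median log2 fold change was -0.33, 69.6% of genes were below 0 and 12% had an unadjusted p under 0.05. In the bin of the longest spans the median was 0, 50.5% were below 0 and 3.49% had such a p. Across 9734 genes Spearman's rho was 0.175 and Pearson's r of the log10 span 0.152, given as a description because genes share the libraries. Ribosomal proteins made up 63 genes of the shortest bin, with a median of -0.87, and the other 911 genes there had one of -0.29. Clustered histone genes, with a median span of 491 bases, went the other way, with a median of 0.57. With the libraries scaled to the same sum the shortest bin was at -0.21 and the longest at 0.11, so the difference between them stayed while the level moved. Chromosome medians ran from -0.05 on chromosome 16 to -0.18 on chromosomes 3 and X, and chromosome Y, with 6 genes, had one of -0.47. Whether span, library and the lower lists are related was not tested.

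**Figure D4:**
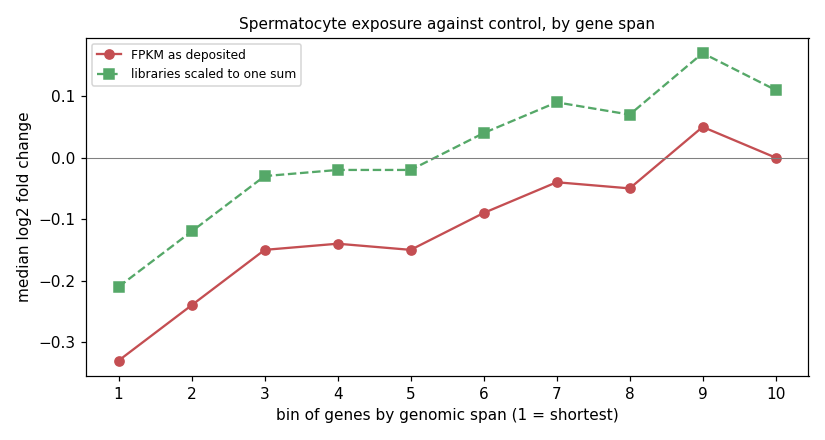
Median log2 fold change of AAS against control in 10 bins of genes by genomic span, shortest on the left, with FPKM as deposited (red) and with libraries scaled to the same sum (green). The shortest bin is at -0.33 and -0.21 and the longest at 0 and 0.11.

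The most abundant transcripts were not those with the largest fold changes. Gm20594 had the highest mean, at 54479.31, 71355.9 and 36023.4 FPKM in controls and 20703.06, 50122.69 and 36618.17 in AAS, overlapping groups (log2 fold change -0.63, SE 0.34). It was -0.28 without AAS replicate 1 and 0 to 2 decimals after quantile normalisation. Zbed3, a maternal factor of the subcortical complex, was at 9945.49, 7593.15 and 6208.56 FPKM in controls and 9560.24, 12591.54 and 10555.5 in AAS (0.48, SE 0.20). Omt2b, an oocyte transcript, was at -0.76, or -0.23 without AAS replicate 2, Oog3 at -0.20, Btg4, which recruits the deadenylase in maternal mRNA clearance, at -0.18 and the ubiquitin-conjugating enzyme Ube2d3 at -0.31. Dcdc2c was at 2059.34, 2085.82 and 2243.58 FPKM in controls and 2885.87, 2475.56 and 3054.29 in AAS, all above control (0.39, SE 0.15), and Gm7102 at 0.34 with the same order. Ccdc82 was at -0.10. The sign of Ccdc82 turned with the libraries scaled to the same sum (0.05) and those of Ube2d3 (0.00) and Btg4 (0.01) after quantile normalisation.

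The exposures were compared directly by testing AAS against AAE in a fit of all 9 embryo libraries. Of 9766 genes, 0 (0%) passed, the smallest adjusted p of limma was 0.071, and 755 (7.73%) had an unadjusted p under 0.05. The smallest adjusted p was that of Immp1l, which lay at 180.98, 190.51 and 224.13 FPKM in AAE, above every control library, where AAS lay below every one. Xrcc3 lay at 14.92, 21.62 and 32.36 FPKM in AAE, also above control, and had an AAS minus AAE log2 value of -2.28 (limma, adjusted p = 0.228). For Vkorc1 AAE stood at 41.38, 63.21 and 88.16 FPKM, around the control values, and AAS minus AAE was -1.86 (adjusted p = 0.274). AAS and AAE share their controls, so their lists are given side by side only. Cytosolic ribosomal proteins had a median against control of -0.89 in AAS and -0.29 in AAE, where 62 of 79 were below 0 (55.4% of all genes were). In the direct comparison 70 of the 79 had a lower value in AAS than in AAE (54.5% of all genes had), with a median of -0.59. Clustered histones had a median of 0.57 in AAS and 0.51 in AAE, and of 0.05 in the direct comparison.

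The authors' deposited table for this comparison covers 10216 genes and calls 35 (0.343%) at its adjusted p under 0.05, 9 higher (0.0881%) and 26 lower (0.255%). It rests on the same libraries and is no independent evidence. Some genes described above for their small limma p-values, none of which passed limma, are called in that table. These are Fam162a, Vkorc1, Stxbp3, Fcgr3, Kin, Immp1l and Dguok, all lower, and Hist1h2bl, Nrp2, Mospd3, Rfx2 and 1700066M21Rik, all higher. Others described there, among them Cox7c, Snrpd2, Sycp3, Lhb, Pan2 and Abt1, are not called in it. Of the 35, 30 were tested here, all 30 with the same sign and 28 with an unadjusted p under 0.05 in limma, and 7 of the 35 were not listed in any AAS library. The groups did not overlap for 33 of the 35 (against 13% of all genes tested), which were called for their difference. Among its higher genes, Pacsin2, a membrane-bending protein of endocytosis, was at 45.49, 47.32 and 45.49 FPKM in controls and 83.74, 61.84 and 91.47 in AAS (0.75, SE 0.22 in limma). Dlg5, a scaffold of cell polarity, was at 2.73, 2.01 and 1.93 FPKM in controls and 5.39, 5.63 and 4.52 in AAS (0.94, SE 0.36). Ankrd52 was at 3.78, 1.88 and 2.32 FPKM in controls and 17.2, 13.51 and 2.92 in AAS, which overlap, and Ffar3, a receptor of short-chain fatty acids, was at 0.15, 0 and 0 in control and 9.79, 0.09 and 3.98 in AAS, overlapping.

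Among its lower genes, Elp6 of the Elongator complex was at 4.59, 1.89 and 1.39 FPKM in controls and 0.05, 0.07 and 0.06 in AAS (-1.67, SE 0.47 in limma). Echdc1, a metabolite-proofreading decarboxylase, was at 1.88, 4.05 and 5.68 FPKM in controls and 0.75, 0.39 and 0.33 in AAS (-1.64, SE 0.46). Wdyhv1 was at 4.8, 0.99 and 3.56 FPKM in controls and the chemokine receptor gene Cxcr4 at 0.76, 5.06 and 0.85, and neither was listed in any AAS library. Nor were Pcdha11 and Hyal5, which did not reach a mean of 1 FPKM. Single libraries weighed on others: Tfec was at 34.91 FPKM in control replicate 1 and 0.3 and 0.56 in the other control libraries, and Spred2, an inhibitor of Ras signalling, at 64.95, 21.67 and 6.88 FPKM in controls and 4.47, 5.91 and 2.45 in AAS.

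Markers of other cells were few. Of 12 cumulus and granulosa markers 3 were tested, among them Nr5a2, which embryos also express, and their list summed to 48.01, 48.05 and 44.85 FPKM in controls and 42.98, 22.5 and 26.83 in AAS. Nr5a2, whose values are given above, made up most of this sum in every library, so the sum mainly follows that gene. Amhr2 was at -0.65 and Cyp19a1 at -0.36, while Foxl2, Ptx3, Inha, Amh and Cyp11a1 were not listed in any embryo library. Of 22 macrophage and leukocyte markers, a list added after values had been seen, 7 were tested and 4 of these were below 0, and the list summed to 40.42, 42.23 and 37.21 FPKM in controls and 26.83, 33.42 and 32.25 in AAS. It contains Fcgr3, and the defining markers Ptprc, Csf1r and Adgre1 were not listed in any library. The blood marker Hba-a1 was at 1.61, 6.75 and 0.6 FPKM in controls and 0, 0 and 2.15 in AAS. Of 12 spermatid markers only Odf2 was tested, at -0.20, and no fibroblast or epididymal marker was. Of later embryo markers, Sox2 was at -0.73, Tfap2c at -0.46 and Nanog at 0.03. In pooled embryos, fewer cells of a type and less RNA per cell cannot be told apart, and the part of these markers in the results above was not tested.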

How the data were processed

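Libraries of pooled 2-cell embryos were made with a Nugen Trio kit, per the labels' protocols. HISAT2 2.0.4, DESeq2 and the build mm10 are named, without their roles, per the submitters' processing notes. The FPKM files deposited by the authors list transcripts above 0 only. The log2 fold changes and p-values (p and adjusted) deposited by the authors were printed only where named. Transcript FPKM were summed by gene ID. A gene missing from a library was set to 0, although its estimate may only have failed. Genes whose mean over the 6 libraries reached 1 FPKM were kept. The sums equalled the authors' gene values in 61286 of 61296 cases within 0.015 FPKM. Log2(FPKM + 1) was fitted with limma 3.58.1 in R 4.3.3 (eBayes with trend, two-sided, Benjamini-Hochberg adjustment at 0.05), which was tested on simulated data. This scale understates the change of low genes. Low values gave no clear steps of single reads, so depth is unknown.

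The members and lists were chosen with earlier results of these data known. Lists are described by counts and medians, with no test, and overlap. Named genes are the 15 of each direction with the smallest p among those listed in every library of the higher group, the 3 smallest p of each list, the 10 highest means, and up to 10 genes per direction of the authors' table. A gene this rule names is not reported here. Gene spans, symbols of 25 date-like names and promoters are from RefSeq. Transcript length had been planned, and genomic span was used instead. Alternatives were other pseudocounts, filters, scalings, variance settings, a replicate block, all 9 libraries, the most abundant transcript, and leaving out each library. Figures used matplotlib 3.10.9.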

Additional observations from a re-analysis of the deposited data

Results flagged for a closer look

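For 5 named genes every AAS library lay on one side of all control libraries and every AAE library on the other side. The log2 difference AAS minus AAE was -1.55 for Immp1l, the inner membrane peptidase (limma on 9 libraries, adjusted p = 0.071), -2.28 for the recombination gene Xrcc3 (adjusted p = 0.228), 1.09 for Pacsin2 (adjusted p = 0.365), 0.67 for Dcdc2c (adjusted p = 0.374) and 0.62 for Gm7102 (adjusted p = 0.408). None passed at 0.05. For Pacsin2 the highest AAE value, 45.41 FPKM, lay just under the lowest control value, 45.49 FPKM. The 5 were picked out of 133 named genes, many of them named for a small p between AAS and control. The share of all genes tested with this pattern is not given here, and the opposite sides themselves were not tested.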

How the results depend on the processing

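Every alternative run gave 0 genes with an adjusted p under 0.05, for AAS against control and for AAS against AAE. Genes with an unadjusted p under 0.05 numbered 1083 with no filter, 400 with a mean of 5 FPKM or more, 1021 with array quality weights, and 286 (without control replicate 2) to 1031 (without AAS replicate 1) with 1 library left out, and 373 without control replicate 1. The difference in genes listed, AAS minus control, was -532.7 at 1 FPKM or more and -1316 at 0.1 or more. Signs turned for Cyp19a1 without AAS replicate 3 (0.21, range without 1 library -0.70 to 0.21), for Nanog without AAS replicates 1 (-0.04) and 3 (-0.01) and control replicates 2 (-0.04) and 3 (-0.12; range -0.12 to 0.25), for Ccdc82 on the scaled sum (0.05) and without AAS replicate 1 (0.17) and control replicates 1 (0.03) and 2 (0.05; range -0.36 to 0.17), and under quantile normalisation for Ube2d3 (0.00) and Btg4 (0.01). Of 131 named genes tested, 31 moved by over 1.5 times without 1 library. The replicate block gave 0 adjusted calls and 571 genes at unadjusted p under 0.05. The correlations of the deviations of same-numbered libraries were 0.0837, 0.011 and -0.154, and those of the other pairs ran from -0.203 to 0.191. Deviations from a mean of 3 libraries are tied to each other, so these values cannot decide whether the numbers pair the samples. Without 1 library, the medians of 29 of 32 lists moved by over 1.5 times and those of 8 changed sign. The combined lists are again counted beside their parts. Read depth is unknown, so low values carry no counting error.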
